A study of Homo sapiens with 6 samples.

Results

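Nucleoporins and nuclear transport receptors were examined in PC-3 cells, an established line of castration-resistant human prostate cancer. The set was a list of 51 gene symbols, 26 for proteins of the nuclear pore and 25 for karyopherins and the GTPase Ran, out of 64253 genes in the deposited tables. Each symbol matched a single gene, and all 51 genes passed the filter on low counts. The list was proposed with results of this comparison in view, so the differences between groups below describe these genes and are not independent evidence about them. CdGAP-depleted cells (shCdGAP, 3 samples) carried a lentiviral short-hairpin RNA against CdGAP, a GTPase-activating protein for Rac1 and Cdc42 that is encoded by ARHGAP31, and control cells (shCon, 3 samples) carried a control shRNA. Both groups were thus transduced derivatives of the same line, and the labels give no other treatment and no time point. The methods describe CdGAP-depleted PC-3 cells as selected single-cell clones, do not say this of the control cells, and do not name the sequenced clone. A property of such a clone and the loss of CdGAP cannot be told apart in this design.

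The nuclear pore complex is a large channel through the nuclear envelope, built of stacked rings of scaffold nucleoporins and lined with proteins rich in phenylalanine-glycine (FG) repeats. Karyopherins carry cargo across it by binding these repeats. Importins release their cargo in the nucleus on binding RanGTP, whereas exportins bind cargo together with RanGTP and release both in the cytoplasm. Importin alpha proteins are adaptors that recognise classical nuclear localization signals and travel in with importin beta (KPNB1), and CSE1L returns them to the cytoplasm.

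The libraries held 33182796 to 43154039 counted reads. ARHGAP31 had 26.4, 27.1 and 26.9 CPM (counts scaled to library size) in shCdGAP replicates 1, 2 and 3, and 58.9, 60.6 and 58.2 CPM in the corresponding shCon replicates. Its log2 fold change, shCdGAP over shCon, was -1.14 (SE 0.0409), so the target was reduced but not absent. The labelled cell type was checked on its markers. KRT8 and KRT18 were abundant in both groups, with group means from 148 to 339 TPM (reads divided by gene length and scaled to a fixed sum per library). KLK3, KLK2 and TMPRSS2 were at or near 0, as were the leukocyte genes PTPRC and CD3E. The 5 fibroblast markers summed to 33.7 to 39.2 TPM in shCdGAP and 8.73 to 9.35 TPM in shCon libraries, 4 of 4 tested were higher, and DCN was near 0. EPCAM and KRT19 were higher in shCdGAP cells (log2 fold change 1.35 and 1.04). CDH1 had 29.6, 50.5 and 25.4 CPM in shCdGAP and 56.6, 58.4 and 59.8 CPM in shCon replicates, without overlap, but was not called (log2 fold change -0.72). The 3 tested endothelial markers were not called. Their part in the results below was not tested. In bulk RNA, fewer cells that use a gene and less RNA per cell cannot be told apart. The library of shCdGAP replicate 2 stood apart from the others of its group, with a chi-square per degree of freedom of 31.5 and 38.6 against them over 13605 genes, where the other 4 pairs within a group gave 2.80 to 7.78. It was the most distant of the 3 shCdGAP libraries for 42 of the 51 genes.

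Most of these genes were expressed at high levels and shifted by a small amount, and 3 of them fell to well under the control level. At an adjusted p under 0.01 in edgeR's quasi-likelihood test (Benjamini-Hochberg adjustment over the 16439 genes tested), 4 of the 51 genes were higher in shCdGAP cells and 29 were lower, or 7.84% and 56.9%. Among all genes tested 24.1% were called higher and 22.0% lower. These genes were more abundant than most, with a median average log2 CPM of 7.14 against 4.34 for all genes, and abundant genes were called lower more often. Among the 6784 genes whose average log2 CPM reached 5, a level chosen after seeing the data, 23.7% were higher and 32.2% lower, against 8.16% and 59.2% of the 49 listed genes at that level. The median log2 fold change of the 51 genes was -0.18, beside 0.01 for all genes tested and -0.05 for those of the higher level. All 3 shCdGAP libraries lay below all 3 shCon libraries for 36 of the genes, above them for 5, and overlapped them for 10, where 32.7% of all genes lay below and 34.4% above. Past a 2-fold change the count was 3 lower (NUP210, KPNA3 and IPO5) and 0 higher, against 4.19% and 8.56% of all genes tested. Among the 6784 genes of the higher level, 4.14% passed it in either direction. The highest log2 fold change of the list was 0.45, and DESeq2 gave 3 genes past 2-fold as well. Without shCdGAP replicate 2, 34 genes were called lower and 5 higher. The additions were KPNB1, POM121, IPO7, TNPO3 and XPO5 among the lower genes, with log2 fold changes of -0.11 to -0.14, and NUP205 among the higher. With all libraries kept, DESeq2 also called KPNB1, IPO7, TNPO3 and XPO5 lower, but not POM121. Leaving out 1 library at a time, the lowest count of lower genes was 22, without shCon replicate 2. At the threshold itself, TNPO1 lay just inside with an adjusted p of 0.00926 and XPO5 just outside with 0.0103 in edgeR's quasi-likelihood test.

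**Figure D1:**
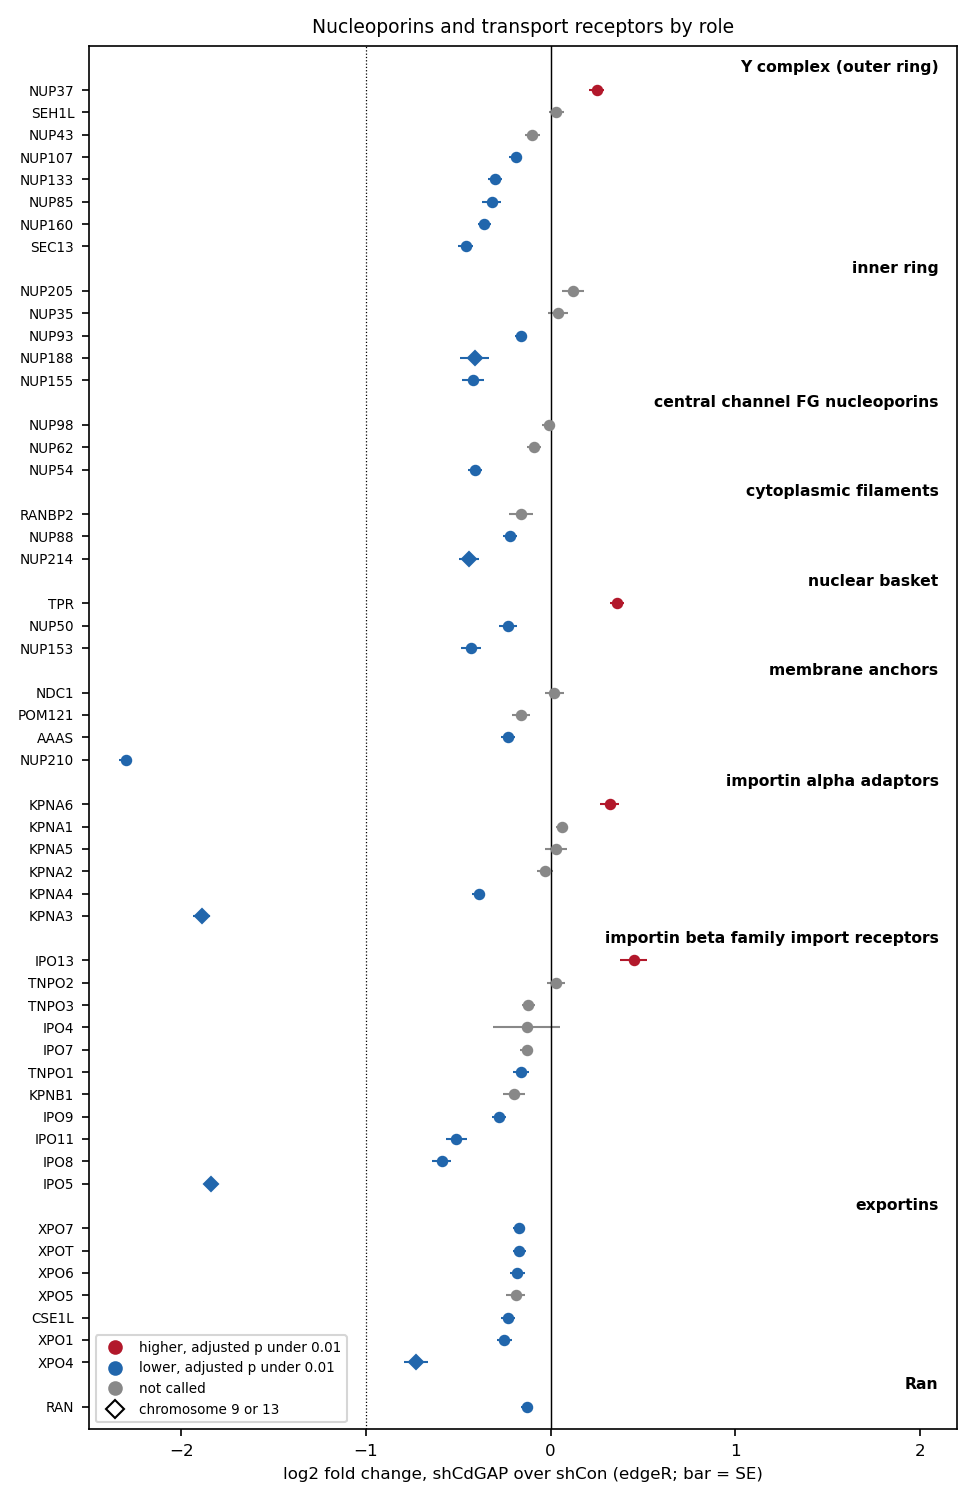
Each point is the log2 fold change of 1 gene, shCdGAP over shCon, with its standard error as a bar, grouped by role, coloured by its call at an adjusted p under 0.01, and drawn as a diamond on chromosome 9 or 13. The dotted line marks a 2-fold decrease, and only NUP210, KPNA3 and IPO5 lie to its left, while the exportins all lie left of 0.

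The Y complex, the main scaffold of the outer rings, had 5 of its 8 genes lower, 1 higher and 2 not called, and the median log2 fold change was -0.24. SEC13, a subunit shared with the COPII coat of secretory vesicles, was the lowest. It had 101, 96.5 and 101 CPM in shCdGAP replicates 1, 2 and 3 and 138, 142 and 132 CPM in shCon replicates. Its groups did not overlap, and its log2 fold change was -0.46 (SE 0.0406). NUP160, NUP85, NUP133 and NUP107, which form the stem and arms of the Y, followed with -0.36, -0.32, -0.30 and -0.19. NUP37, a peripheral subunit of the same complex, moved the other way, at 80.1, 81.3 and 79.0 CPM in shCdGAP and 67.8, 69.6 and 64.7 CPM in shCon replicates. Every shCdGAP value was above every shCon value, with a log2 fold change of 0.25 (SE 0.0403). Per length it was the sixth of the 8 Y complex genes in shCon cells, at 77.1 ± 3.04 TPM (SD, n = 3), and the first in shCdGAP cells, at 92.6 ± 2.30 TPM. SEH1L, which is also part of the GATOR complex of nutrient signalling, overlapped between groups (log2 fold change 0.03), and NUP43 was below control in every library but was not called (-0.10).

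The inner ring, which holds the pore to the membrane and to the FG proteins, had 3 of 5 genes lower and 2 not called. NUP155 had 149, 126 and 145 CPM in shCdGAP replicates and 190, 192 and 181 CPM in shCon replicates, a log2 fold change of -0.42 (SE 0.0611). Replicate 2 of shCdGAP was the lowest library for this gene. NUP188, on chromosome 9, had 170, 136 and 166 CPM against 206, 213 and 207 CPM. Its log2 fold change was -0.41 (SE 0.0787), and its call was lost when shCon replicate 2 was left out. NUP93 was at -0.16, and its call was lost on dropping shCon replicate 1, 2 or 3 in turn and with a block for the replicate number. NUP205, the paralogue of NUP188, had 332, 284 and 329 CPM in shCdGAP and 296, 286 and 290 CPM in shCon replicates. Replicates 1 and 3 of shCdGAP were above all controls and replicate 2 was below them, so the groups overlapped (log2 fold change 0.12, SE 0.0587), and without that replicate it was called higher with a log2 fold change of 0.18. NUP35 overlapped as well, at 0.04.

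Among the FG proteins of the central channel, NUP54 was lower, at 46.9, 45.6 and 46.3 CPM against 61.0, 61.7 and 61.5 CPM in shCon replicates 1, 2 and 3. The gap between its groups was far wider than the spread in either, and the log2 fold change was -0.41 (SE 0.0369). Its partner NUP62 was not called (-0.09), and NUP98, whose transcript also encodes NUP96 of the Y complex, was at -0.01 with overlapping groups. On the cytoplasmic side, NUP214 (chromosome 9) and NUP88, which bind each other at the mRNA export platform, were both lower. NUP214 had 88.4, 76.2 and 84.2 CPM in shCdGAP and 113, 111 and 112 CPM in shCon replicates, a log2 fold change of -0.44 (SE 0.0537), and NUP88 one of -0.22. RANBP2, the SUMO ligase of the cytoplasmic filaments, had 197, 170 and 192 CPM against 216, 216 and 191 CPM and overlapped between groups (-0.16). RANBP2 has near-identical copies in the RGPD genes, so reads placed at several sites were not counted for it and its level is uncertain.

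All 3 genes of the nuclear basket were called, in both directions. TPR, the long coiled-coil protein that forms the basket filaments, had 148, 139 and 143 CPM in shCdGAP replicates and 114, 112 and 110 CPM in shCon replicates. Its libraries did not overlap and its log2 fold change was 0.36 (SE 0.0380). NUP153, which anchors the basket and binds importins, had 155, 135 and 150 CPM against 202, 197 and 193 CPM. Its log2 fold change was -0.43 (SE 0.0533), and NUP50, a cofactor of importin alpha release, had -0.23. The call of NUP50 was lost without shCon replicate 1 or 3.

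The widest change in the list was in a membrane anchor. NUP210 (ENSG00000132182, chromosome 3 from 13316235 to 13420309, minus strand), a pore membrane glycoprotein known from muscle and immune cells, was covered by 1510, 1571 and 1261 reads in shCdGAP replicates 1, 2 and 3 and by 7602, 7549 and 5951 in shCon replicates. Scaled to depth this was 36.7 ± 0.587 CPM (SD, n = 3) against 180 ± 1.17 CPM. The 3 shCdGAP libraries lay within 36.1 to 37.2 CPM, so the fall to 20.4% of the control level was much larger than the spread. The log2 fold change was -2.30 (SE 0.0353), and only 1.04% of all genes tested had a lower one. Per length it dropped from 23rd to 49th of the 51 genes, at 87.9 ± 0.478 TPM in shCon and 18.1 ± 0.255 TPM in shCdGAP cells. The other membrane anchors differed less. NDC1, a transmembrane nucleoporin of the same ring, overlapped between groups (0.02), AAAS, which NDC1 holds at the pore, was lower (-0.23), and POM121 was not called (-0.16). The ratio of NUP210 to NDC1 in TPM was 0.613 ± 0.00697 in shCon and 0.123 ± 0.00671 in shCdGAP libraries. POM121 has a near-identical copy, POM121C, and the level of either is uncertain for that reason.

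**Figure D2:**
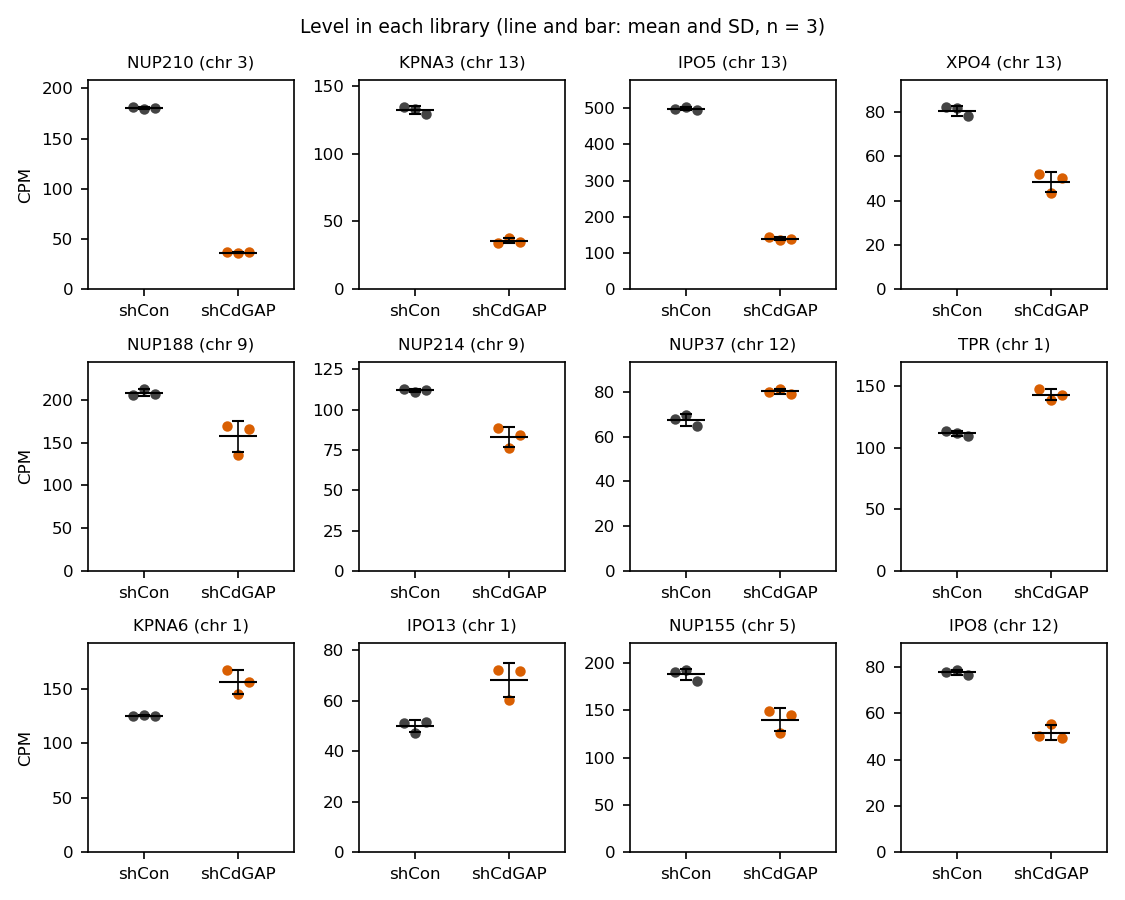
CPM in each library for 12 of the genes, with the control on the left, the mean as a line and the SD as a bar (n = 3 per group). NUP210, KPNA3 and IPO5 have control values several times those of the shCdGAP libraries, while NUP37, TPR, KPNA6 and IPO13 are higher in every shCdGAP library than in any control.

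The importin alpha adaptors split. KPNA3 (importin alpha 4, ENSG00000102753, chromosome 13 from 49699307 to 49792921, minus strand) was covered by 1397, 1640 and 1205 reads in shCdGAP replicates 1, 2 and 3, and by 5624, 5634 and 4267 reads in shCon replicates. This was 34.5, 37.7 and 35.1 CPM against 134, 133 and 129 CPM, with no overlap. The log2 fold change was -1.89 (SE 0.0450), or 27.0% of control. KPNA4, its closest paralogue, was also lower, with 186, 176 and 180 CPM against 237, 241 and 234 CPM and a log2 fold change of -0.39 (SE 0.0348). KPNA6 rose, with 167, 145 and 156 CPM against 125, 126 and 125 CPM and a log2 fold change of 0.32 (SE 0.0505). KPNA1, KPNA2 and KPNA5 were not called, at 0.06, -0.03 and 0.03. KPNA2 was the most abundant adaptor in both groups, at 514 ± 9.41 TPM in shCon and 509 ± 21.8 TPM in shCdGAP cells, which is within the spread.

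As shares of the summed importin alpha TPM, KPNA3 went from 13.2% ± 0.0891 (SD, n = 3) in shCon to 4.02% ± 0.357 in shCdGAP cells. KPNA2 went from 57.4% ± 0.187 to 63.3% ± 0.727, KPNA6 from 7.46% ± 0.0897 to 10.5% ± 0.357, and KPNA1 from 9.45% ± 0.123 to 11.1% ± 0.391. KPNA4 went from 11.2% ± 0.0822 to 9.64% ± 0.175, and KPNA5 stayed the least abundant at 1.26% and 1.45%. The sum itself was 895 ± 14.6 TPM in shCon and 804 ± 27.1 TPM in shCdGAP cells. KPNA3 was thus slightly above KPNA4 per length in control cells (ratio 1.17 ± 0.0139) and well below it in CdGAP-depleted cells (0.416 ± 0.031). Since shares add to 100%, the larger shares of KPNA2 and KPNA1 accompany levels that were not called changed. Without division by length the shares of KPNA2 were lower in both groups, at 36.9% and 40.7% of summed CPM, and KPNA3 was at 12.1% and 3.68%.

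**Figure D3:**
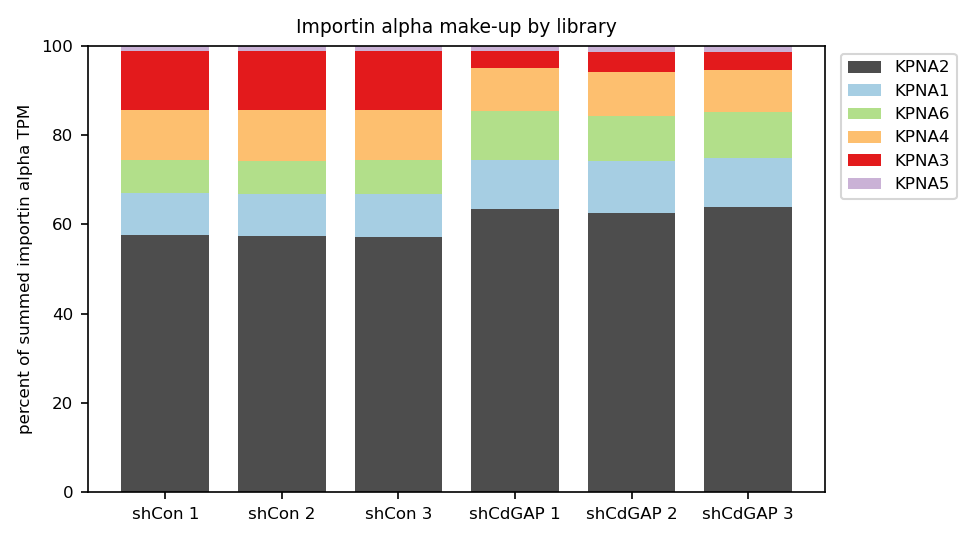
Share of each importin alpha gene in the summed importin alpha TPM, as 1 stacked bar per library. The red KPNA3 segment takes 13.1% to 13.3% of the control bars and 3.75% to 4.42% of the shCdGAP bars, and the bars within a group are nearly alike.

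Of the 11 import receptors of the importin beta family, 5 were lower, 1 was higher and 5 were not called. IPO5 (importin 5, ENSG00000065150, chromosome 13 from 97953658 to 98024297, plus strand), a carrier of ribosomal proteins and histones, was covered by 5828, 5871 and 4797 reads in shCdGAP replicates 1, 2 and 3. The shCon replicates held 20848, 21200 and 16344 reads of it. Scaled to depth this was 144, 135 and 140 CPM against 497, 502 and 495 CPM, without overlap, and the log2 fold change was -1.84 (SE 0.0365), or 0.280 of the control level. Per length it was the seventh of the 51 genes in control cells, at 206 ± 2.17 TPM, and the 32nd in shCdGAP cells, at 58.1 ± 1.67 TPM. Its share of the import receptor TPM went from 12.8% ± 0.104 to 4.32% ± 0.134. KPNB1, the partner of importin alpha and the most abundant of the family, had 857, 735 and 858 CPM against 941, 949 and 924 CPM. All its shCdGAP values were below the controls, yet its adjusted p was 0.0170 in edgeR's quasi-likelihood test and it was not called. KPNB1 was called lower with DESeq2, without a filter on low counts, and without shCdGAP replicate 2 or 3.

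IPO8 and IPO7 are paralogues with different changes. IPO8 had 50.2, 55.5 and 49.3 CPM against 77.8, 78.6 and 76.7 CPM, a log2 fold change of -0.59 (SE 0.0501), while IPO7 had 563, 529 and 552 CPM against 608, 593 and 593 CPM and was not called (-0.13). The IPO7 to IPO8 ratio in TPM was 7.36 ± 0.137 in shCon and 10.2 ± 0.919 in shCdGAP libraries. IPO13, which both imports and exports cargo, was the one receptor of this family that rose. It had 72.0, 60.4 and 71.8 CPM in shCdGAP and 51.2, 47.3 and 51.5 CPM in shCon replicates, a log2 fold change of 0.45 (SE 0.0721) without overlap. IPO11 and IPO9 were lower (-0.51 and -0.28). The transportins, which carry RNA-binding proteins, were at -0.16 (TNPO1), 0.03 (TNPO2) and -0.12 (TNPO3), of which only TNPO1 was called, and that call was lost on dropping shCon replicate 1, 2 or 3 in turn. IPO4 had 3.40 to 5.69 CPM and could not be measured well, because 69.3% of its exon bases in the annotation used for counting are shared with another gene of the same strand, and reads in such bases were not counted. For IPO11 the shared part was 22.6%.

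The 7 exportins had all shCdGAP libraries below all shCon libraries, and 6 of them were called lower. Their median log2 fold change was -0.19. The shifts were narrow, from -0.17 to -0.25, apart from XPO4. XPO1, the receptor for leucine-rich export signals, had 466, 429 and 458 CPM against 542, 539 and 534 CPM (log2 fold change -0.25, SE 0.0395). CSE1L, the recycling receptor of importin alpha, had 497, 461 and 485 CPM against 574, 560 and 557 CPM (-0.23, SE 0.0381). XPOT, the tRNA exporter, had 555, 530 and 546 CPM against 609, 619 and 602 CPM (-0.17, SE 0.0340). Its call was lost without shCon replicate 1 or 2. XPO6, the actin exporter, was at -0.18 and XPO7 at -0.17, while XPO5, the exporter of microRNA precursors, was at -0.19 and not called. The call of XPO6 was lost on dropping shCon replicate 1, 2 or 3 in turn, and that of XPO7 without shCon replicate 2. XPO4, on chromosome 13, had 51.9, 43.5 and 50.1 CPM against 82.0, 81.6 and 77.9 CPM, with a log2 fold change of -0.73 (SE 0.0647). Of the summed exportin TPM, CSE1L took 41.4% ± 0.413 in shCon and 41.1% ± 0.224 in shCdGAP cells, within the spread, whereas the share of XPO4 fell beyond it, from 2.14% ± 0.0436 in shCon to 0.698 times that share in shCdGAP cells. RAN was the most abundant gene of the list in both groups, at 822 ± 16.6 TPM in shCon and 759 ± 9.66 TPM in shCdGAP cells (log2 fold change -0.13, SE 0.0320). Its call was lost in 8 of 13 alternatives, and reads shared with its processed copies in the genome would not have been counted.

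The order of levels was otherwise kept at the top. After RAN came CSE1L at 592 ± 9.89 TPM, KPNA2 at 514 ± 9.41 TPM and KPNB1 at 488 ± 7.90 TPM in shCon cells, and the same genes held ranks 2 to 4 in shCdGAP cells, where CSE1L (511 ± 16.6 TPM) and KPNA2 (509 ± 21.8 TPM) did not differ beyond their spread. XPOT and IPO7, next in order at 331 ± 5.73 and 330 ± 4.92 TPM in shCon cells, did not differ beyond their spread either. At the bottom, IPO4 and KPNA5 were last in both groups. The nucleoporins summed to 2040 ± 27.5 TPM in shCon and 1780 ± 72.0 TPM in shCdGAP cells, and the receptors without RAN to 3930 ± 46.2 and 3390 ± 125 TPM. The spread between replicates was wider in shCdGAP cells, with a median coefficient of variation over the 51 genes of 3.74% against 1.54% in shCon cells, where the values were 4.70% and 2.04% over genes with an average log2 CPM of 5 or more and 7.70% and 3.90% over all genes tested.

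The listed genes were also compared by their position on the chromosome. The median log2 fold change of all genes tested was -0.99 on chromosome 13 (271 genes), -0.42 on chromosome 9 (662 genes) and 0.03 elsewhere. The 5 listed genes on these chromosomes (NUP188, NUP214, KPNA3, IPO5 and XPO4) were all lower, and their median was -0.73. For each gene, the median log2 fold change of the 10 tested genes on either side was taken as the local level. IPO5 stood at -1.84 beside neighbours at -1.79, and KPNA3 at -1.89 beside -1.58. On chromosome 9, NUP188 (-0.41) and NUP214 (-0.44) stood beside neighbours at -0.64 and -0.60. With 5 genes on either side, the neighbours of NUP214 were at -0.45, level with it, and those of NUP188 at -0.54. XPO4, nearer the start of the long arm of chromosome 13, was lower (-0.73) than its neighbours (-0.27). With 5 and 25 genes on either side the local levels were -1.56 and -1.65 for IPO5, -1.73 and -1.54 for KPNA3, and -0.38 and -0.24 for XPO4. With 25 genes they were -0.57 for both NUP188 and NUP214.

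NUP210 on chromosome 3 differed from its surroundings by most, at -2.30 where its neighbours were at -0.49. SEC13, on the same arm of chromosome 3 (from 10293131 to 10321178), was at -0.46 beside neighbours at -0.40. TPR rose by 0.36 among neighbours at 0.32, but that local level was 0.57 with 5 genes and 0.18 with 25, so its place relative to its surroundings depended on the window. KPNA6 (0.32) and IPO8 (-0.59) lay among neighbours at 0.06 and 0.11. Without the 5 genes of chromosomes 9 and 13, 46 genes were left, of which 4 were higher (8.7%) and 24 lower (52.2%). Over all genes tested, with both chromosomes included, the shares were 24.1% and 22.0%, and shares without them were not counted. For genes whose average log2 CPM reached 5, also with both chromosomes included, 23.7% were higher and 32.2% lower. The median of the 46 genes was -0.16, beside 0.03 for all genes tested off these chromosomes. Without NUP210 as well, the log2 fold changes ran from -0.59 to 0.45.

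**Figure D4:**
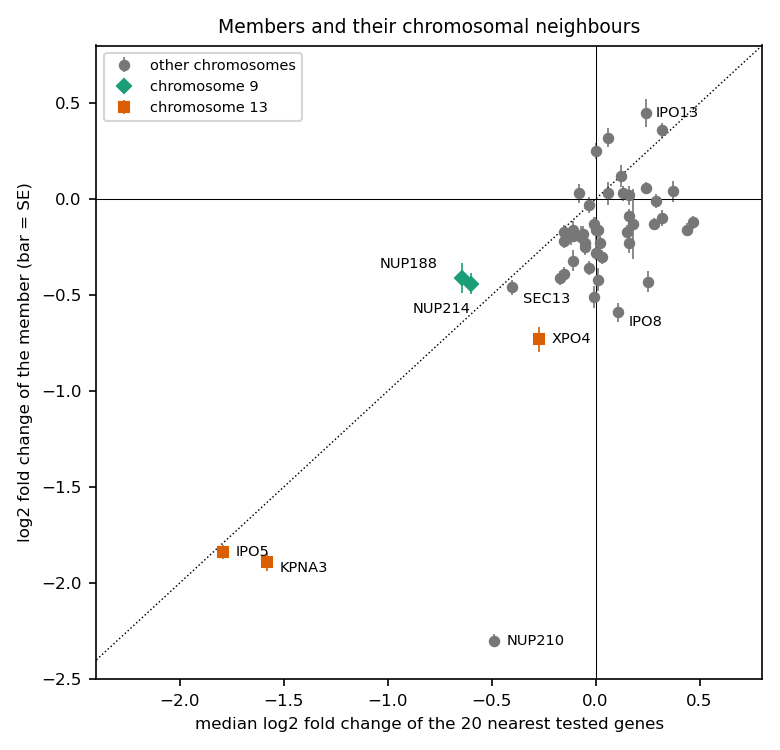
Log2 fold change of each listed gene (vertical, SE as bar) against the median of the 10 tested genes on either side of it (horizontal), with the dotted line where both are equal. IPO5 and KPNA3 lie near that line at the lower left, NUP210 far below it, and most other genes cluster near 0.

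Because NUP210 departed from its neighbours and IPO5 did not, the sequences just before their start sites are shown, from RefSeq on GRCh38.p14, 5′ to 3′ in the direction of transcription, with motif matches in capitals. They are the bases at chr3:13420323-13420572 on the minus strand and chr13:97953425-97953657 on the plus strand, the latter shortened to end before the gene span of the deposited tables. For KPNA3, 239 of the 250 bases of the RefSeq window lie inside that span, and its letters are not shown.
NUP210: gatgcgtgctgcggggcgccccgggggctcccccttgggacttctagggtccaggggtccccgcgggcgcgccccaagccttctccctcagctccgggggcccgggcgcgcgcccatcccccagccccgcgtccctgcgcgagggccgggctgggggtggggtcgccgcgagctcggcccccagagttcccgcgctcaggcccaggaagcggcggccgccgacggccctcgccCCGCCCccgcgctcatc
IPO5: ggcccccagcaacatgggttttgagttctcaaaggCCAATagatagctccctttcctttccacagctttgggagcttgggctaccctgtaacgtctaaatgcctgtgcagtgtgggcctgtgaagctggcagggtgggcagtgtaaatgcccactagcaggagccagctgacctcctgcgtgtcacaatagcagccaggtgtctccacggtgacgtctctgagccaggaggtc
The NUP210 stretch is 80.8% G and C and holds a GC box (GGGCGG, here on the opposite strand), whereas the IPO5 stretch is 56.7% G and C and holds a CCAAT box. The same search, in both strands of the 250 bases before the start, found promoters for 46 of the 51 genes. GC boxes were in 26 of the 46 (56.5%), against 66.2% of the promoters of 11489 tested genes, and CCAAT boxes in 19 (41.3%), against 35.2%. The letters CCGGAAG, the core bound by ETS factors, were in 14 (30.4%), against 15.3%, among them NUP37, NUP107, NUP160, SEC13 and SEH1L of the Y complex. E-boxes (CACGTG) were in 7, KPNA3 and RAN among them (15.2%, against 8.70%), and TATAAA in 2 (4.35%, against 5.75%). The KPNA3 window is the one with 239 of its 250 bases inside the deposited gene span. Of the 27 matched genes that were called lower, 8 held CCGGAAG, 17 a GC box and 11 a CCAAT box, where all 46 held 14, 26 and 19. Whether a motif goes with the change in level was not tested. The motifs searched do not overlap each other in the letters shown. A match is a run of letters and not a measured binding site.

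Other genes of nuclear transport, a list of 59 that holds none of the 51, of which 57 were tested, had 6 genes higher and 28 lower, or 10.5% and 49.1%, beside 24.1% and 22.0% of all genes tested. Their median log2 fold change was -0.18 and their median average log2 CPM was 6.25. Among all genes tested whose average log2 CPM reached 5, 23.7% were higher and 32.2% lower. Of the other transport genes off chromosomes 9 and 13, 22 of 51 were lower (43.1%) and 6 higher (11.8%). Their median was -0.12, beside 0.03 for all genes tested off these chromosomes, where shares of called genes were not counted. Of the other nucleoporins, 4 of 6 tested were lower and 2 were not called. GLE1, the activator of the export helicase DDX19 and on chromosome 9, had 53.8 ± 2.73 CPM in shCdGAP and 93.1 ± 2.54 CPM in shCon cells (log2 fold change -0.79), and NUP58, the partner of NUP54 and NUP62 and on chromosome 13, was at -0.51. In the Ran cycle, 4 of 6 were lower and 1 was higher. RCC1, the exchange factor that makes RanGTP, had 138 ± 10.9 against 184 ± 2.66 CPM (log2 fold change -0.42), RANBP1 was at -0.53 and RANGRF at -0.53, and NUTF2, which imports Ran, at -0.18. RANBP3, a cofactor of XPO1, was higher (0.19), and RANGAP1 was not called (0.09).

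In mRNA export, 10 of 21 genes were lower and 11 were not called. PCID2, on chromosome 13, had 12.4 ± 0.875 CPM in shCdGAP against 44.0 ± 0.592 CPM in shCon cells (log2 fold change -1.82), the widest fall of the 57. DDX39A, ALYREF and POLDIP3 were at -0.53, -0.51 and -0.58, while the export receptor NXF1 was not called (0.08) and its partner NXT1 was lower (-0.40). Of the 4 RNA and ribosome export adaptors 3 were lower, among them the cap-binding gene NCBP1 on chromosome 9 (-0.70). Other receptors had 2 genes higher and 1 lower of 5, with KPNA7, an importin alpha at 0.875 ± 0.0387 against 0.389 ± 0.0615 CPM, at 1.18 and RANBP6 on chromosome 9 at -0.44. In the nuclear envelope and lamina, 6 of 15 genes were lower and 3 were higher. The higher ones were the nesprins SYNE1, at 56.8 ± 5.03 against 18.8 ± 2.44 CPM (log2 fold change 1.59), and SYNE2, at 205 ± 16.9 against 79.0 ± 6.01 CPM (1.38), together with SUN1 (0.22), which joins nesprins to the lamina. TOR1A on chromosome 9 was at -0.49, and the lamin B receptor LBR at -0.68. Of 12 genes of DNA replication and mitosis, which differ with the growth of a culture, 7 were lower (58.3%) and 1 was higher (8.33%). Among all genes tested 22.0% were lower and 24.1% higher, and among those whose average log2 CPM reached 5, 32.2% and 23.7%. The lower genes of the 12 were MCM2, MCM3, MCM4, MCM6, MCM7, PCNA and CDK1, with log2 fold changes of -0.62 to -0.25. AURKA was higher (0.22), while MCM5 (-0.37), MKI67 (-0.02), TOP2A (-0.11) and CCNB1 (0.18) were not called. Over the 12 genes the median change was -0.33 in log2. Their sums were 1990 to 2150 TPM in shCdGAP and 2420 to 2550 TPM in shCon libraries. The part of these genes in the results was not tested.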

How the data were processed

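RNA of 3 shCdGAP and 3 shCon samples of PC-3 cells was sequenced. Per the labels and methods, the authors aligned reads to GRCh38 with STAR 2.5.1b and deposited raw counts of reads per gene, 1 table per sample. The file headers name featureCounts 1.6.0, Ensembl release 77, and strand-specific counting of pairs with both ends mapped, while the methods name version 1.4.6 and a single-read kit. These settings leave out reads that align to more than 1 place or that fall where genes of a strand overlap, so near-identical or overlapping genes are uncertain.

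From these counts, edgeR 4.0.16 in R 4.3.3 (filterByExpr, TMM, robust quasi-likelihood F test) was fitted over 16439 genes without a block, with limma 3.58.1, and DESeq2 1.42.0 as an alternative. A gene was called at an adjusted p under 0.01, and past 2-fold where its log2 fold change was also beyond 1 in size, the limits the study used. Standard errors were derived from the fitted change and the F statistic. CPM uses TMM-scaled library sizes, and TPM divides reads by exon length. The fit was tested on simulated counts. The methods name 3 independent samples per group. With 3 libraries a group the smallest two-sided exact permutation p is 0.1, so no gene was tested outside the model across all genes.

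The list, its roles and the other gene lists were chosen with earlier results of these data known. Genes given in full are the highest and lowest log2 fold change of each role, those on chromosomes 9 and 13, RAN, KPNB1, XPO1, KPNA2 and CSE1L, and, of the other transport genes, the 3 highest, the 3 lowest and those on chromosomes 9 and 13. The remaining named genes were chosen after their values were seen. As alternatives, DESeq2, scaling by upper quartile or by library size alone, TMM without chromosomes 9 and 13, other filters, a threshold of 0.05, each library left out once, and a block for the replicate number were run. Promoter sequences are those of RefSeq (GRCh38.p14), and figures and tables were made with Python 3.11.15.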

Additional observations from a re-analysis of the deposited data

How the results depend on the processing

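Over the 51 genes, the number called lower was 29 in the reported fit, 33 with DESeq2, 28 with upper-quartile scaling, 27 with library size only, 32 with TMM without chromosomes 9 and 13, 32 without a filter, 29 with at least 10 reads in every library, and 34 at an adjusted p under 0.05. The number called higher was 4 in each of these, and 3 genes were past 2-fold in every setting tried. Leaving out 1 library at a time gave 22 to 34 lower and 4 to 5 higher genes, and 3 to 11 higher and 25 to 32 lower genes among the 57 other transport genes, beside 6 and 28 in the reported fit. The count of 11 came without shCdGAP replicate 2, and 3 came without shCon replicate 2 or 3. The cause was not tested. No called gene changed direction. Calls that changed in 3 or more of 13 alternatives were those of RAN, TNPO1, XPO5, NUP93, KPNB1, TNPO3, POM121, IPO7 and XPO6, all with a log2 fold change between -0.25 and -0.10 in every setting.

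Samples with the same replicate number in the labels did not deviate together (correlations of 0.0306, 0.0499 and 0.0469), so the numbers were not taken as pairs, although each sample correlated best with the one of its own number. With the replicate number as a block, 26 of the 51 genes were lower, 4 higher and 3 past 2-fold, and 29 of the other transport genes were lower and 5 higher.

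Depth was high for these genes, so limits come from the 3 libraries per group, from shCdGAP replicate 2, and from reads that were not counted in shared sequence. Transcript levels do not measure protein or transport.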
